A study of Mus musculus with 8 samples.

Results

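The control gastrocnemius libraries describe transcript abundance, and its spread between libraries, in an adult mouse calf muscle. Of the 8 libraries in the series, 4 carry control labels and were used here, and they were chosen by the group name in their column headings alone. The mice were C57BL/6, 16 weeks old, and carried a floxed glucocorticoid receptor gene (Nr3c1); in the other group of the series, an inducible Cre recombinase under a human skeletal actin promoter deletes that gene in myofibres. The labels name neither a Cre transgene nor an inducer for the control mice, nor do they tie each library to its own mouse. Every SD below thus measures the spread between these libraries, which may be partly technical. Poly(A) RNA was made into stranded libraries from 700 ng of total RNA. The 4 libraries are called A, B, C and D in the order of their columns. No comparison with the other group was made, and with a single group no test of a difference between conditions was possible, so the text gives levels, their spread and counts.

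Totals ran from 36680510 counts in library A to 44987629 in library D. The closest pair, A and C, still had a chi-square over its degrees of freedom of 13.1, and the most distant pair, C and D, of 63.9, so all 4 differed by more than sampling noise. The tissue label was met by the data: all 14 fast-fibre contractile genes on the list were above 1 CPM (the count relative to a library size of 1e6, scaled by the trimmed mean of M-values, TMM), and the 6 hepatocyte markers summed to between 0.0817 and 0.216 CPM. Each of 3 libraries stood apart from the rest in a marked group of transcripts. Library A was high in B-cell genes (Cd79a at 8.85 CPM against 0.0504 to 0.368 in the others). Library B was high in epidermal genes (the 6 listed markers summed to 32.4 CPM against 1.66 to 2.01). Library D was low in transcripts that overlap ribosomal RNA (Gm42418 at 3771 CPM against 11638 to 15976). The part of these transcripts in other results was not tested.

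Gastrocnemius is a mixed limb muscle dominated by fast fibres, which take adenosine triphosphate mainly from phosphocreatine and glycolysis, with a smaller share of slow oxidative fibres. Fast and slow fibres build the same sarcomere from different genes: each fibre type has its own myosin heavy chain, troponin subunits, calcium pump and regulatory light chain. Fibre nuclei share the tissue with endothelial, fibroblast, nerve, fat and immune cells, whose transcripts are also counted in a whole-muscle library.

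Sequence bears directly on what these counts can show for the mitochondrial genome. The gene for cytochrome oxidase subunit 2, mt-Co2 (chrM:7013-7696), has a near-identical nuclear copy, the pseudogene Gm28661 (chr1:24614885-24615565, minus strand). Their first 60 transcript bases, from GENCODE M21 on GRCm38, are shown because they are identical letter for letter, so that no base is in capitals:
mt-Co2: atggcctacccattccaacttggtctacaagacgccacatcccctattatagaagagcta
Gm28661: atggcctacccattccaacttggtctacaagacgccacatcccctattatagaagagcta
Over the whole copy, 681 of 681 bases were identical, so a read from within this stretch matches both places.

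Promoters of 4 sarcomere and energy genes are shown for the elements of muscle genes that could be searched in them. Each is the 120 bases before the RefSeq start on GRCm38.p6, on the gene's own strand. Capitals mark a TATA-type word (TATAAA or TATATA), a CArG box, or an MCAT word (CATTCC or its reverse complement). Myh4 and Ckm were chosen for abundance, and Tnnc1 and Tnnt1 as slow-fibre genes of wide spread, after their values and motifs were seen. The windows are chr11:67237692-67237811 (plus strand), chr7:19410974-19411093 (plus), chr14:31208192-31208311 (plus) and chr7:4515976-4516095 (minus), in this order.
Myh4: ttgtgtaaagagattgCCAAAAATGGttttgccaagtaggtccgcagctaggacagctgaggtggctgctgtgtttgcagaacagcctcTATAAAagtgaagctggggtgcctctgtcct
Ckm: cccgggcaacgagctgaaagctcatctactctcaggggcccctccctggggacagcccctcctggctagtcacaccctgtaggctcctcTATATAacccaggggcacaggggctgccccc
Tnnc1: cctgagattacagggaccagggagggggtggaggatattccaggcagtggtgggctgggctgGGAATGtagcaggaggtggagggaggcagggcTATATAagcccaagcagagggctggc
Tnnt1: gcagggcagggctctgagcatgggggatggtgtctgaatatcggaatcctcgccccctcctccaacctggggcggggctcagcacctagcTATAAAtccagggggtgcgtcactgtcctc
The TATA-type word lay 31 to 26 bases before the start in Myh4 and Ckm, 30 to 25 in Tnnt1 and 26 to 21 in Tnnc1, and the CArG box of Myh4 lay 104 to 95 bases before it. RefSeq promoters were matched for 67 of the 100 genes of highest CPM. A TATA-type word between 50 and 15 bases before the start was present in 7.46% of these 67 promoters in 1.87% of the 9324 promoters matched to genes at 1 CPM or more, and in 3.94% of all 19057 promoters matched to the table. Over 250 bases and both strands, the MEF2 motif was present in 11.9% of the 67, 1.83% of the 9324 and 2.80% of the 19057, the CArG box in 5.97%, 1.18% and 1.35%, and MCAT in 17.9%, 10.4% and 11.9%. The GC box (GGGCGG) was present in 53.7% of the 67, which lies below the 60.2% of the 9324 and above the 41.1% of the 19057. TATA-type and MEF2 words can overlap. Among the genes with a coefficient of variation (CV, the SD over the mean of the 4 libraries) under 5%, the TATA-type word was present in 0.802% and the GC box in 63.5% of promoters, beside 1.87% and 60.2% of the 9324. In the 504 promoters of genes whose highest library was at least 2 times the lowest, these 2 shares were 6.35% and 45.0%. These sets were not matched for level. Some shares rest on few promoters: 11 of 1372 for the 0.802%, and 5, 8 and 4 of the 67 for TATA-type, MEF2 and CArG. A match is a description of letters and not evidence of a bound site.

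The counts were concentrated in few genes. Of 48709 genes in the table, 25173 had at least 1 count and 12245 reached a mean of 1 CPM. Only 83 genes reached 1000 CPM, and they held 53.0% ± 1.58 of all counts (SD, n = 4), while the 16 genes at 10000 CPM or more held 33.4% ± 1.31. The 100 most abundant genes held 55%, 53.8%, 56.4% and 52.8% in libraries A, B, C and D, so the concentration was highest in C and lowest in D. Protein-coding genes made up 11636 of the 12245 genes and 97.7% ± 0.481 of the counts.

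Myh4, the myosin heavy chain of the fastest (type IIB) fibres (chr11:67238029-67260446), led with 61617, 55100, 69751 and 53803 CPM in libraries A to D, or 5.99% ± 0.514 of all counts. Library C was highest and D lowest, a 1.30-fold range. Atp2a1, the calcium pump of fast-fibre sarcoplasmic reticulum, followed with 35104, 35794, 36063 and 35052 CPM. Its CV of 1.42% was below that of Myh4 at 12.2%, so the leading genes did not share a common spread. Acta1, skeletal alpha-actin, stood at 35013 ± 1589 CPM, and Ckm, the cytosolic muscle creatine kinase, at 27784 ± 2761. Tnnt3, the tropomyosin-binding subunit of fast troponin, was at 25286 ± 3459 CPM, with A and C above B and D. Ttn, which encodes the giant spring protein titin, held 14499 ± 1686 CPM and was lowest in D at 12073.

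**Figure D1:**
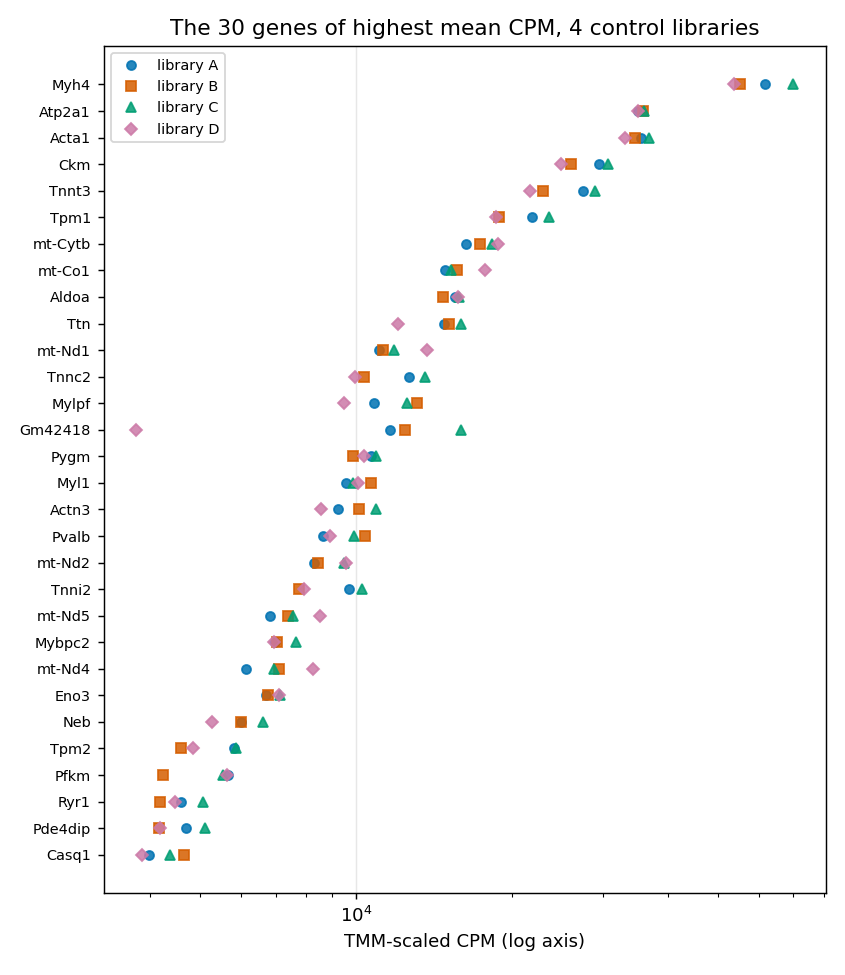
TMM-scaled CPM (log axis) of the 30 genes of highest mean CPM, with 1 point per control library. Points nearly coincide for Atp2a1 (35052 to 36063 CPM) and lie widest apart for Gm42418, where library D at 3771 CPM is far to the left of the others.

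Per kilobase of merged exon, which lets genes of different length be compared, Acta1 was the most abundant at 22795 ± 1034 CPM per kilobase, and its 4 libraries lay above all 4 of the next gene. Tnnt3 at 15974 ± 2185, mt-Cytb (cytochrome b) at 15480 ± 975 and Tnnc2, the calcium-binding subunit of fast troponin, at 14574 ± 2205 CPM per kilobase then followed. From Tnnt3 down to the fifteenth gene, Aldoa, every pair of neighbours overlapped between libraries, so their order is not fixed beyond the spread. Titin, with its very long transcript, fell to 124 ± 14.4 CPM per kilobase. Tnnc2 is uncertain in part, since 55% of its 50-base words also occur in transcripts of other genes, Ube2c sharing the most.

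Among the 4 adult limb myosin heavy chains, Myh4 took 92.0%, 92.1%, 92.7% and 91.2% of the reads in libraries A to D. Myh1, of type IIX fibres, took 3.99% ± 0.464 and Myh2, of type IIA fibres, 3.52% ± 0.230. Myh7, the slow type I chain, took 0.304%, 0.593%, 0.136% and 0.922%. The slow share was thus below 1% in every library, lowest in C and highest in D, while Myh4 kept above 91% in all 4. Corrected for length, the mean slow share was 0.345% ± 0.244. Myh1 and Myh2 share 32.1% and 28.9% of their 50-base words with other genes, above all with each other, so their split is less certain than that of Myh7 and Myh4. The developmental chains were low: Myh3, the embryonic chain, was at 12.4 ± 3.16 CPM and Myh8, the perinatal chain, at 9.68 ± 2.25.

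The same fast excess held in every other pair of fast and slow isoforms examined, on the scale of CPM per kilobase. A pair of another kind was Acta1 with Actc1, cardiac alpha-actin and not a slow-fibre isoform. Acta1 exceeded Actc1 183-, 21.6-, 190- and 109-fold in libraries A to D. Fast Tnni2 exceeded slow Tnni1, the inhibitory troponin subunits, 710-, 334-, 1705- and 217-fold in libraries A to D. Fast Tnnc2 exceeded Tnnc1 between 115-fold in D and 772-fold in C. The calcium pump Atp2a1 exceeded its slow-fibre counterpart Atp2a2 between 118-fold in D and 328-fold in C. By contrast, the fast myosin-binding protein gene Mybpc2 exceeded Mybpc1 by only 5.90- to 6.26-fold, and this ratio varied least of the 12 pairs. The lactate dehydrogenase genes Ldha and Ldhb differed by 7.12- to 9.11-fold.

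Slow-fibre contractile genes were the sarcomere group that varied most between libraries. In bulk tissue, fewer fibres of a type and less RNA per fibre cannot be told apart. Of the 14 listed genes, all above 1 CPM, 8 (57.1%) had a highest library at least 2 times the lowest, beside 6.13% of all 12245 genes. Their median CV was 35.4%, beside 10.2% over all genes. None of the 14 fast-fibre genes met the 2-fold rule, and their median CV was 11.1%. Myh7 was at 204, 355, 102 and 544 CPM in libraries A to D. Tnni1 was at 32.9, 55.8, 14.5 and 87.7 CPM, and Tnnc1, the slow calcium-binding troponin subunit, at 54.5, 76.6, 22.9 and 113 CPM. All 3 genes ran from D through B and A down to C. That order was picked after the values were seen. It was shared by 6 of the 14 listed genes, these 3 among them, beside 4.98% of all genes. The count describes the list and is no support for the order. Library D was highest in 12 of the 14, beside 26.6%. Tpm3, the slow tropomyosin, stood at 81.6, 129, 44.5 and 174 CPM, Tnnt1, the slow tropomyosin-binding troponin subunit, at 78.6, 117, 59.7 and 172, and Atp2a2 at 216, 288, 192 and 518. Among the steadier members were Mybpc1, a slow-type myosin-binding protein C gene, at 1486 ± 42.1 CPM (CV 2.84%) and Myoz2, a Z-disc protein of slow fibres, at between 106 and 129 CPM (CV 8.82%).

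**Figure D2:**
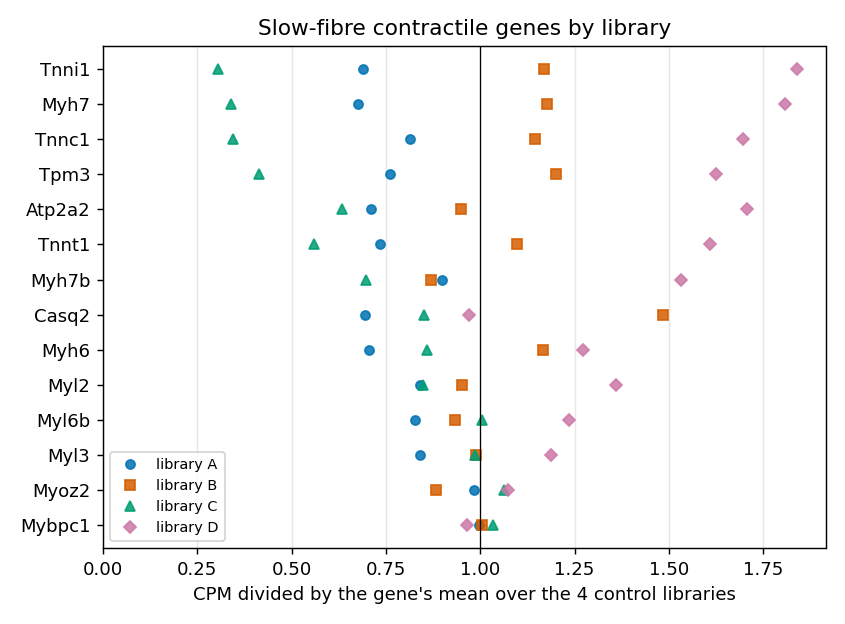
CPM of each listed slow-fibre contractile gene divided by its mean over the 4 control libraries, with 1 point per library and genes ordered by CV. Tnni1, Myh7, Tnnc1 and Tpm3 run in the order D, B, A, C from high to low, while the 4 points of Mybpc1 (CV 2.84%) nearly coincide.

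Thin filament, Z-disc and M-band genes held 9.17% ± 0.300 of all counts, and 1 of 35 listed genes met the 2-fold rule, beside 6.13% of all genes. That gene was Actc1, cardiac alpha-actin, which adult limb muscle carries at low level. Actc1 was at 204, 1690, 204 and 320 CPM in libraries A to D, so library B alone was high. Mybph, a myosin-binding protein H gene, was likewise at 54.8, 619, 91.5 and 62.3 CPM, and here too B alone was high. Of its 50-base words, 45.0% occur also in transcripts of other genes, Adora1 sharing the most. Structural genes beside them were steadier, with Neb, the thin-filament ruler nebulin, at 5975 ± 549 CPM and Ldb3, a Z-disc scaffold, between 1836 and 1980 CPM. Tcap, the titin cap, varied more than these, at 2783, 1785, 3269 and 2371 CPM. Its CV was 24.7%, beside a median of 8.88% over genes at 1000 CPM or more.

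Genes of the triad, where the action potential is coupled to calcium release, together held a close to uniform share of counts. The 20 listed genes held 1.51% ± 0.0216 of counts, with a median CV of 8.85%. Ryr1, the calcium release channel, was at 4605, 4180, 5064 and 4468 CPM, and Cacna1s, its voltage sensor, at 1117, 1211, 1224 and 982. Of the 20, 1 (5%) met the 2-fold rule, beside 6.13% of all genes. That gene was Sln, sarcolipin, a small inhibitor of the calcium pump, which was barely detected at 0.735, 1.38, 1.01 and 2.38 CPM, D being highest.

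Genes of glycolysis and of phosphocreatine were abundant and mostly even between libraries. The 31 glycolysis and glycogen genes held 6.45% ± 0.216 of counts, with a median CV of 7.96%. Aldoa, the muscle aldolase, was at 15568, 14721, 15856 and 15764 CPM. Pygm, the muscle glycogen phosphorylase, was at 10704, 9887, 10955 and 10368, and Eno3, the muscle enolase, at 6710, 6772, 7134 and 7098. These 3 abundant enzymes varied by 3.15% to 4.41% between libraries. Of the 31 glycolysis and glycogen genes, 1 (3.23%) met the 2-fold rule, beside 6.13% of all genes. That gene was Pdk4, the kinase that switches off pyruvate dehydrogenase, at 521, 1513, 549 and 505 CPM, with B alone high. The 10 measured creatine and adenylate genes held 3.30% ± 0.196 of counts, most of it from Ckm.

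The 13 protein genes of the mitochondrial genome held 6.97% ± 0.676 of counts, with library D highest at 7.93% and A lowest at 6.39%. mt-Cytb was at 16301, 17384, 18312 and 18840 CPM, and mt-Nd1, a complex I subunit, at 11068, 11290, 11856 and 13724. Against these, mt-Co2 was at 0.463, 0.857, 0.555 and 1.88 CPM, mt-Co3 at 0.790, 1.17, 0.857 and 2.14, and mt-Atp6 at 7.22, 6.06, 9.66 and 8.03. mt-Co2 and mt-Co3 were thus near 1 CPM, although they are encoded by the same mitochondrial strand as mt-Co1 at 15900 ± 1280 CPM. The share of 50-base words found also in transcripts of other genes was 100% for mt-Co2, 99.9% for mt-Co3, 99.5% for mt-Atp6, 98.0% for mt-Nd3 and 98.8% for mt-Nd4l, and 0% for mt-Cytb, mt-Nd1, mt-Atp8 and mt-Nd6. With no shared word, mt-Nd6 was at 31.2 ± 5.29 CPM and mt-Atp8 at 310 ± 93.0. With 51.1% and 62.2% shared words, mt-Co1 and mt-Nd4 were abundant, mt-Nd4 at 7111 ± 874 CPM. Of the 13 protein genes, mt-Nd6 alone lies on the minus strand, and mt-Atp8 (chrM:7766-7969) overlaps mt-Atp6 (chrM:7927-8607). The words were sought in transcripts only, so 0% does not exclude a match elsewhere in the genome. The part of shared sequence in these levels was not tested. The copy itself was hardly counted: Gm28661 was at 0.109, 0.158, 0.101 and 0.281 CPM. Whether reads with several matches were counted is not given in the sources used here, so the levels of all genes with such copies are uncertain and should not be read as abundance.

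**Figure D3:**
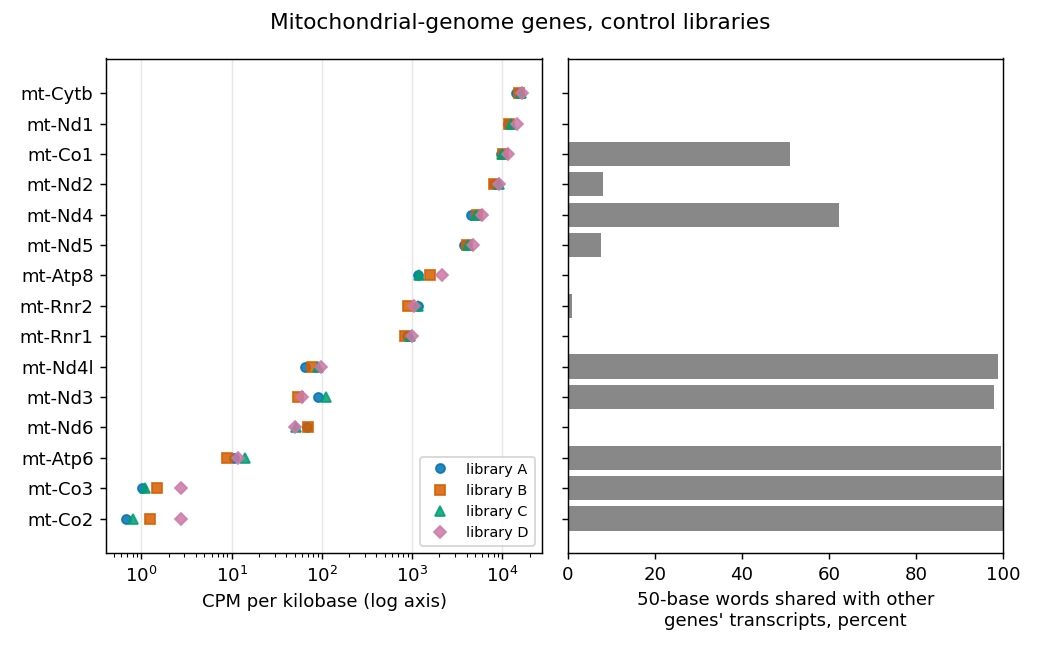
CPM per kilobase (log axis) of each mitochondrial-genome gene by control library, beside the percent of its 50-base words that occur in transcripts of other genes. The genes at 98.0% or more shared words lie lowest with mt-Nd6, while mt-Cytb and mt-Nd1 at 0% lie highest.

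Nuclear genes of respiration were lower and steady. The 79 respiratory chain genes held 2.27% ± 0.0484 of counts, and none met the 2-fold rule, beside 6.13% of all genes. In TMM-scaled CPM, 58 of the 79 were highest in C, beside 21.5% of all genes. As a share of unscaled counts, the list was highest in A at 2.32%, with C at 2.31%. Sdha, the flavoprotein of succinate dehydrogenase, was among the steadiest, at 890, 883, 908 and 892 CPM (CV 1.19%). The 18 citric acid cycle genes had the lowest median CV of the pathway lists, 4.68%, with Cs, citrate synthase, at 826, 872, 840 and 866 CPM. Among 28 fatty acid genes, 3 (10.7%) met the 2-fold rule, beside 6.13% of all genes. Each was highest in B, as were 44.5% of all genes past that rule. These were Angptl4, a secreted inhibitor of lipoprotein lipase, at 4.57, 24.2, 4.41 and 6.71 CPM; Plin5, a lipid droplet coat protein, at 14.5, 30.5, 21.3 and 16.3; and Ucp3, a mitochondrial carrier of muscle, at 129, 277, 168 and 170.

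Over all 12245 genes, the median CV between the 4 libraries was 10.2%, with quartiles of 6.63% and 16.1%, beside 4.07% from counting alone. The spread fell with level and then flattened above what counting gives: the median CV was 21.9% at 1 to 2 CPM, 7.55% at 50 to 100 CPM and 8.88% at 1000 CPM or more, where counting alone gives 0.317%. The common biological coefficient of variation from edgeR was 14.9%. Library B contributed most to the spread. Without it the median CV was 8.63% and the 2-fold genes numbered 389 in place of 751, and without A, C or D they numbered 517, 580 and 548; a range over 3 libraries cannot exceed that over 4, so some fall is built in. Among the 751 genes past the 2-fold rule, B was highest in 334 (44.5%), beside 31.5% of all genes, and C was lowest in 322 (42.9%), beside 25.1%. These 322 make up 2.63% of all genes.

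**Figure D4:**
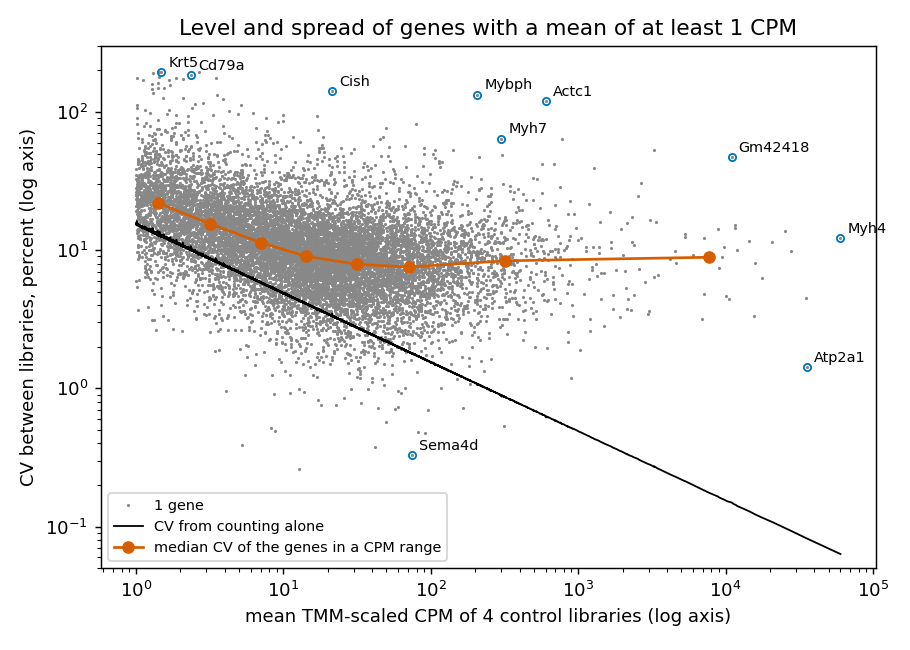
CV between the 4 control libraries (log axis) against mean CPM (log axis) for the 12245 genes at 1 CPM or more, with the median per CPM range and the CV that counting alone gives. The median falls from 21.9% to 7.55% and then levels off above the counting line, with Actc1, Mybph and Cish far above it and Sema4d below.

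The steadiest genes at 50 CPM or more were not those of the sarcomere. Sema4d, a membrane semaphorin, was at 74.2, 73.9, 74.5 and 74.5 CPM, a CV of 0.330% where counting alone gives 1.80%. Opa3, a mitochondrial membrane protein, was at 91.4, 91.6, 91.5 and 92.3 CPM, and Immt, which shapes mitochondrial cristae, at 313, 314, 317 and 314. Dctn1, a dynactin subunit, stayed between 165 and 168 CPM, and Smarca4, a chromatin remodelling ATPase, between 62.0 and 63.4. With 4 libraries, 1136 genes (9.28%) had a CV at or below counting, so the lowest CVs say only that no spread beyond counting was detectable. Of the genes often used to normalise polymerase chain reactions, a list drawn up after the data were seen, Rpl27 had a CV of 4.95%, Gapdh 5.91% and Tbp 6.38%, while B2m had 15.3% and Tfrc, the transferrin receptor, 32.6%. Tfrc ran at 152, 300, 168 and 262 CPM.

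Several of the genes of widest spread were high in a single library. Cish, a feedback inhibitor of cytokine and growth hormone signalling, was at 66.8, 8.72, 3.38 and 6.86 CPM, high in A alone (CV 141%). Chac1, a glutathione-degrading enzyme, was also high in A, at 107, 34.0, 24.8 and 33.9 CPM. Cyp2e1, an ethanol-oxidising cytochrome, was at 8.79, 39.8, 3.98 and 15.1 CPM, and the imprinted noncoding transcripts Rian and Meg3, which neighbour each other on chromosome 12, were highest in B, Rian at 7.57, 36.1, 12.4 and 12.8 CPM and Meg3 at 13.6, 37.5, 19.5 and 19.0. Slc25a30, a mitochondrial carrier, was at 8.25, 3.52, 5.47 and 22.3 CPM, and Neto2, an accessory protein of glutamate receptors, at 8.22, 3.07, 5.14 and 20.4, so D was highest and B lowest in both.

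Library B was also low in transcripts that the others held. Slc15a2, a peptide transporter, was at 4.22, 0.0676, 15.8 and 10.4 CPM. Cacna2d4, a calcium channel subunit, was at 24.3, 2.64, 21 and 25.5 CPM, and Actr3b, an actin-related protein, at 20.9, 4.10, 17.9 and 26.4. In all 3 genes B was lowest, by 4-fold or more. Genes that lay 4-fold or more above all other libraries numbered 19 in A and 10 in B, and none in C or D. Those as far below numbered 9 in B, 7 in C and 3 in D, and none in A. Both counts are out of the 12245 genes with a mean of at least 1 CPM. Several of the genes high in A or B, such as Cd79a and Krt5, reached that mean only through the library where they were high. The counts above the others are thus no support for a difference of A or B.

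Genes that respond to time of day, stimulation or glucocorticoids had median CVs above the 10.2% of all genes, 18.1% to 29.2% by list. Of 19 measured clock genes, 3 (15.8%) met the 2-fold rule, beside 6.13% of all genes, and the median CV was 18.1%. Per2, a clock repressor, was at 4.60, 4.42, 7.51 and 12.2 CPM, D being highest, while Nr1d1, a repressor in the same loop, was at 222, 179, 157 and 152, A being highest. The hour of sampling is not given in the labels. Of 30 immediate-early genes above 1 CPM, 15 met the 2-fold rule, beside 6.13% of all genes, and D was lowest in 20 of the 30, beside 20.2% of all genes. Fos was at 15.1, 7.30, 8.83 and 2.88 CPM, and Gadd45g, a stress-induced growth arrest gene, at 92.9, 142, 165 and 52.7. The 31 measured genes together stood at 812, 792, 874 and 560 CPM, D lowest.

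Nr3c1, the floxed receptor itself, was at 80.8, 88.0, 81.2 and 88.5 CPM, a CV of 5.00%. Among 21 listed glucocorticoid-responsive genes, 5 (23.8%) met the 2-fold rule, beside 6.13% of all genes. Klf9, a transcription factor, was steady at 105, 109, 102 and 106 CPM, while Ddit4, an inhibitor of the growth kinase mTOR, was at 38.8, 156, 106 and 15.1, B being highest and D lowest. Fbxo32 and Trim63, muscle ubiquitin ligases, were at 443 ± 102 and 313 ± 39.3 CPM. The metallothioneins Mt1 and Mt2 were both highest in B and lowest in D, at 7.65, 22.8, 10.9 and 5.34 CPM for Mt1 and 6.04, 15.9, 5.55 and 3.29 for Mt2, of whose 50-base words 45.5% recur in other genes' transcripts.

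Housekeeping lists had lower median CVs than the clock, immediate-early and glucocorticoid-responsive lists. The lists were not matched for level. Over all genes the median CV was 7.55% at 50 to 100 CPM and 8.37% at 100 to 1000 CPM. The 80 cytosolic ribosomal protein genes held 0.8% ± 0.0296 of counts with a median CV of 8.74%, and C was highest in 56 of them, beside 21.5% of all genes, and D lowest in 55, beside 20.2%. The 31 proteasome genes had a median CV of 6.78% and the 20 heat shock genes 8.91%. Muscle transcription factors included Mef2c at 475 ± 33.3 CPM and Myod1, the myogenic determination factor, at 25, 11, 17.9 and 17.8, B lowest. At the neuromuscular junction, Chrne, the adult acetylcholine receptor subunit, was at 17.8, 21.2, 20.2 and 21.2 CPM, while Chrng, its fetal counterpart, stayed between 0.0902 and 0.177. Of secreted factors, Mstn, the growth inhibitor myostatin, was at 64.3, 69.5, 68.1 and 96.8 CPM, and Fndc5 was steady at 83.9 ± 3.86.

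Markers of the other cells of muscle were detected at different levels of constancy. Endothelial genes were the most even: the 12 markers summed to 598, 610, 565 and 592 CPM, a CV of 3.17%, with Cdh5, the endothelial cadherin, at 112 ± 4.73. Pericyte and smooth muscle genes (886, 1041, 919 and 970 CPM) and satellite cell genes (42.7, 48.0, 43.4 and 45.6) were also close, and Pax7, the stem cell factor, was at 2.67, 3.02, 2.67 and 2.92. Fibroblast genes summed to 2260, 2585, 1867 and 2691 CPM, and library C was lowest in all 13 of them, beside 25.1% of all genes. Col1a2, a fibrillar collagen, was at 318, 399, 223 and 427 CPM. Of 14 Schwann cell genes, B was highest in all 14, beside 31.5% of all genes, and 5 met the 2-fold rule, beside 6.13%; Pmp22, a myelin protein of peripheral nerve, was at 51.2, 85.9, 44.7 and 48.3. Of 9 adipocyte genes above 1 CPM, 7 met the 2-fold rule, beside 6.13% of all genes, and B was highest in 8, beside 31.5%. Cfd, adipsin, was at 41.9, 84.9, 15 and 40 CPM, and Adipoq, adiponectin, at 10.8, 16.1, 3.51 and 8.46. Ucp1, the brown fat uncoupling protein, was at 0 in all 4.

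**Figure D5:**
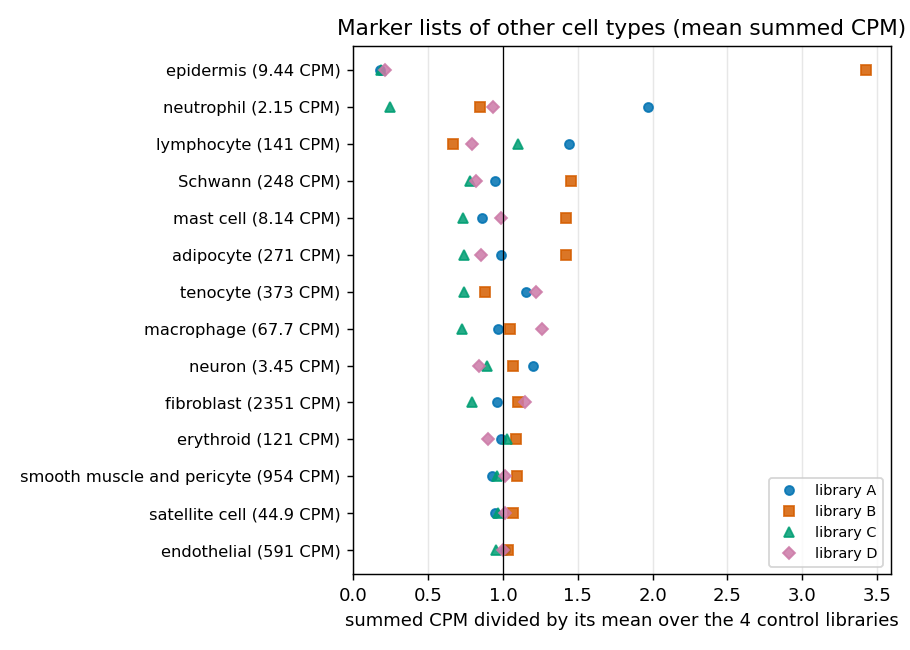
Summed CPM of each marker list divided by its mean over the 4 control libraries, with 1 point per library and the mean sum beside each name. Library B is far to the right for epidermis (32.4 CPM), library A for neutrophil (4.25 CPM), and the 4 endothelial points (565 to 610 CPM) nearly coincide.

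Immune and skin transcripts marked single libraries. Of the B-cell genes, Cd79a, an antigen receptor chain, was high in A alone, at 8.85, 0.135, 0.0504 and 0.368 CPM. The immunoglobulin gene Igkc was at 10.0, 0.293, 0.0504 and 3.76 CPM, A being highest and D next. Glycam1, a mucin of lymph node venules, was at 5.01, 0, 0 and 0.195 CPM. The 13 lymphocyte genes on the list summed to 203, 94.6, 156 and 112 CPM, A being highest and C next, with most of each sum from the immunoglobulin gene Ighm at 160, 93.0, 154 and 104. Only 5 of the 13 reached a mean of 1 CPM, in part through library A itself, so that A was highest in all 5, beside 20.3% of all genes, is no support for the difference. Ptprc, the leukocyte antigen CD45, was at 10.8, 2.21, 1.69 and 2.53. T-cell markers followed at lower level, Cd3e at 0.790, 0, 0 and 0.0865. Macrophage genes instead were highest in D in 7 of 10, beside 26.6% of all genes, with Csf1r at 10.7, 12.2, 8.83 and 16.6 CPM. Keratins were high in B alone: Krt5, of basal epidermis, was at 0.0272, 5.75, 0.0252 and 0.108 CPM, and Krt77, a type II keratin, at 0, 10.5, 0 and 0.195. Only 4 of the 6 listed epidermal genes reached a mean of 1 CPM, and they did so through library B.

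Transcripts that overlap ribosomal RNA or lack a poly(A) tail were lowest in library D in 4 of the 7 genes above 1 CPM, beside 20.2% of all genes. Gm42418, a locus that overlaps ribosomal RNA, was at 11638, 12439, 15976 and 3771 CPM, and 94.9% of its 50-base words recur in other transcripts. Lars2, a mitochondrial leucyl-tRNA synthetase gene on the same list, was at 3060, 3951, 5085 and 996 CPM. The 17 measured genes of this kind summed to 1.49%, 1.69%, 2.02% and 0.507% of counts. Malat1, a nuclear long noncoding transcript, was also lowest in D, at 457, 348, 388 and 252 CPM, while Neat1, another nuclear transcript, was even at 1620, 1759, 1715 and 1752.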

How the data were processed

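The deposited table holds the authors' raw counts by Ensembl gene, not normalised, for all 8 libraries. Per the series' design text and the submitters' processing notes, they used bcl2fastq 2.17.1.14, aligned to mm10 with TopHat version 2 and counted with HOMER; edgeR is named for their own comparison. No source used here gives the annotation release, or says how strand and reads with several matches were treated. The 4 columns of the other group were not used here. Column numbers match no label, so no replicate number was carried over.

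From the counts, CPM was computed with TMM scaling (edgeR 4.0.16, R 4.3.3) over totals of 36680510 to 44987629. CV is the SD over the mean of 4 libraries, counting CV is 1 over the square root of the mean count, and both cover genes with a mean of at least 1 CPM. Dispersion came from edgeR and was tested on simulated data. Levels per kilobase used merged GENCODE M21 exons, which may differ from the authors' gene models; genes under 300 bases were left out of that order. Shared words of 50 bases were sought among all GENCODE transcripts.

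The members, the 39 gene lists and the rule for named genes were chosen with earlier results of these data known; a list of 12 reference genes was added after the data were seen. The rule takes the 30 genes of highest CPM, the 15 highest per kilobase, the 20 of highest CV at 5 CPM or more, the 12 of lowest CV at 50 CPM or more, in each list the 4 most abundant and the 2 of highest CV, the myosin, clock and early-response genes, and Nr3c1. Other genes named were chosen after their values were seen. Alternatives covered scaling, filters, thinning to the smallest library, each library left out, DESeq2 1.42.0 dispersion and transcript length.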

Additional observations from a re-analysis of the deposited data

Results flagged for a closer look

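Values were looked at again where 1 of the 4 libraries lay farther from the others than Dixon's 95% limit for the gap relative to the range. Chance alone marks about 1 in 20 such groups. Of 151 values tested, 19 (12.6%) were marked, 6 of them for library A, 8 for B, 2 for C and 3 for D; over all 12245 genes the share was 5.72%. The genes named were partly chosen for wide spread, so the first share says little.

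Library A was far above the others for Cish (66.8 CPM), Chac1 (107 CPM), Ptprc (10.8 CPM), Cd79a (8.85 CPM), Cd3e (0.790 CPM) and Glycam1 (5.01 CPM). Library B was far above for Mybph (619 CPM), Actc1 (1690 CPM), Angptl4 (24.2 CPM), Pdk4 (1513 CPM), Krt5 (5.75 CPM), Krt77 (10.5 CPM), Pmp22 (85.9 CPM) and the summed epidermal list (32.4 CPM). Library C was above for Mybpc2 (7671 CPM) and the summed triad list (16021 CPM). As a share of unscaled counts, C did not stand apart for the triad list, at 1.48%, 1.52%, 1.52% and 1.51% in libraries A to D. Library D was above for Opa3 (92.3 CPM, against 91.4 to 91.6 in the others) and Mstn (96.8 CPM), and below for Fndc5 (78.2 CPM). For Opa3 the gap is smaller than counting error.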

How the results depend on the processing

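No paired analysis was possible because a single group was described and the columns carry no replicate number from the labels. The results below are descriptions without a statistical test. An alternative can move a value, and with it the genes that pass the filter or the 2-fold rule.

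The number of genes kept was 25173 with no filter beyond 1 count, and 12187 to 12329 with 1 library left out. The share of the 100 most abundant genes was 50.3% with mitochondrial and non-polyadenylated genes left out of the total, and 53.9% to 55.1% with 1 library left out. The median CV was 11% with the library total alone, 11.7%, 8.82% and 27.0% with filters at 0.25 CPM, 5 CPM and 1 count, 8.84% with counting variance taken off, and 8.63% (without B) to 10.2% with 1 library left out. The 2-fold genes numbered 1967, 235 and 11986 under the same 3 filters, and 389 (without B) to 580 with 1 library left out. The common biological coefficient of variation was 16.4%, 12.7% and 16.9% under those filters, 11.7% from DESeq2's gene-wise dispersions, and 13.0% to 16.0% with 1 library left out. The median CV of the named genes was 13.0% to 16.8% with 1 library left out. Lists whose median CV lay above that of all genes numbered 24, and 13 with no filter beyond 1 count. The low filters add genes of few counts, whose counting error is larger. Of 1153 values recomputed for single genes, 939 moved by less than their spread over leave-one-out values. The 1153 include the leave-one-out values themselves, so that count is in part measured against itself. With the library total alone, 77 of 106 genes moved by less than this spread and 29 by more. Depth limits the genes near 1 CPM, where counting alone gives a CV of 13.0%.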
